A study of Mus musculus with 6 samples.

Results

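The 10 genes described here carry the calcium cycle that couples excitation to contraction in heart muscle cells: Pln, Sln, Atp2a2, Ryr2, Casq2, Cacna1c, Slc8a1, Camk2d, Jph2 and Fkbp1b. They were found on the arrays by matching each probe's accession to its gene symbol, control spots left out, and they make up 10 of 22811 genes with a probe. Together they had 23 probes, and 7 of them had several. Cy3-labelled RNA of whole hearts was measured on 1-colour Agilent mouse arrays, 1 array per mouse. The rhTM group was 3 mice given recombinant human thrombomodulin, a soluble form of an endothelial anticoagulant receptor, and the saline group was 3 mice given saline at the same times. All 6 mice were C57BL6 males aged 10 weeks, starved for 16 h and then injected intraperitoneally with 20 mg/kg of lipopolysaccharide (LPS). The agent or saline was given 3 and 24 h after LPS, and hearts were taken at 30 h. The dose of rhTM is not given in the labels, and no heart without LPS was analysed here, so both groups are LPS hearts. Nothing in the labels says that mice were pooled.

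In each heartbeat calcium enters through the L-type channel, releases more calcium from the sarcoplasmic reticulum (SR) through the ryanodine receptor, and is then pumped back into the SR by SERCA2a or expelled by the sodium-calcium exchanger. Phospholamban and sarcolipin are small membrane proteins that inhibit the SERCA pump. Phosphorylation of phospholamban by protein kinase A or CaMKII lifts that inhibition. Disturbed SR calcium uptake and release have been described in the hearts of animals with endotoxaemia.

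With controls left out, 59305 spots were read on every array. Between 54.8% and 62.8% of them stood well above background, and 0 were saturated. Saline 1 and 2 lay on slide 1, and saline 3 lay on slide 2 with all 3 rhTM arrays, scanned at another time. The slide and the group are therefore partly confounded, and the only difference within a slide sets the rhTM mean against saline 3 alone. Quality measures also differed between slides. The spike-in fit had an R2 of 0.990 and 0.987 on slide 1, against 0.845 to 0.881 on slide 2. The median CV was 9.32% and 9.26% on slide 1, against 7.22% to 7.67% on slide 2. The 75th percentile of the signal was 732.2 and 671.1 on slide 1, against 394.4 to 466.0 on slide 2. Values are log2 signals relative to the array's 75th percentile, and levels of different probes cannot be set against each other. Genes were called at an adjusted p under 0.05 in a limma fit over 14697 genes, with Benjamini-Hochberg adjustment over all of them. With 3 arrays a group, precision is limited throughout. The titles number the mice but do not say that they were raised or treated separately, so p-values measure only the spread between these samples.

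Of the 10 genes, 9 were bright enough to be tested, 1 was higher with rhTM and 0 were lower past the threshold. The gene that rose was Pln, which encodes phospholamban. In the same limma fit 2.76% of all genes tested were called higher, 2.42% lower and 5.17% in either direction. The count of 1 among 9 is too small to set apart from that background. An unadjusted p under 0.05 was found for 2 of the 9, beside 4511 of all 14697 genes tested. The same 4511 of 14697 is the background for every such count in a gene list below. The median difference (rhTM minus saline) of the 9 tested genes was -0.18, beside 0.01 for all genes tested, with 3 positive and 6 negative. Within slide 2, against saline 3 alone, the median of the 9 was 0.49, with 5 positive and 4 negative. With the slide as a block the median of all genes tested was -0.0. The cardiomyocyte markers described below had a median of 0.63 within slide 2. Blocking on the slide left 1 of the 9 called, beside 5.78% of all genes, and blocking on the replicate number also left 1, beside 4.08%. Settings that called many genes called more members: 5 with array weights, beside 62.9% of all genes, 2 in the deposited value table, beside 30.7%, and 2 without saline 3, beside 38.6%.

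**Figure D1:**
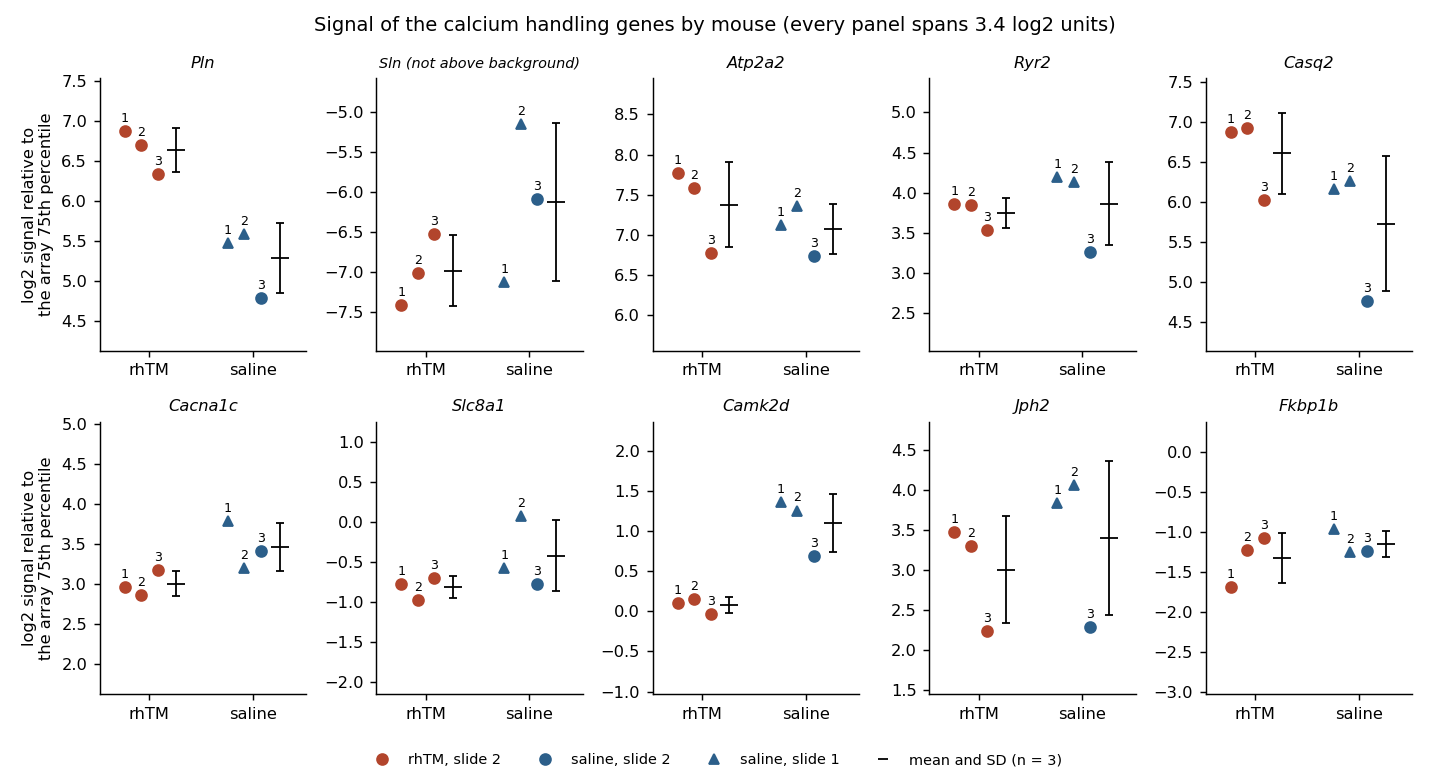
Log2 signal relative to the array's 75th percentile (vertical axis) of the representative probe of each of the 10 genes in every mouse, rhTM left of saline, with circles for slide 2 and triangles for slide 1 and bars for the mean and SD (n = 3). The 3 rhTM hearts lie above the 3 saline hearts for Pln and below them for Camk2d and Cacna1c, and the other genes overlap.

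The regulator of the pump is described first. Pln had a log2 signal of 6.87, 6.70 and 6.34 in rhTM hearts 1, 2 and 3, against 5.48, 5.59 and 4.79 in saline hearts 1, 2 and 3. Every rhTM heart lay above every saline heart. The group means were 6.64 ± 0.27 with rhTM and 5.29 ± 0.43 with saline (SD, n = 3 each), a difference of 1.35 ± 0.28 (SE, 95% interval 0.68 to 2.02) or 2.55-fold, with an adjusted p of 0.0478 by limma. Groups that did not overlap were found for 35.7% of all genes tested, and for 3 of the 9 members. Within slide 2, the rhTM mean lay 1.85 above saline 3, and blocking on the slide gave an adjusted p of 0.0286. The call did not survive the loss of most single arrays. The limma adjusted p was 0.20 without rhTM 1, 0.217 without rhTM 2, 0.0543 without rhTM 3, 0.153 without saline 1, 0.0959 without saline 2 and 0.0122 without saline 3, while the difference stayed between 1.10 and 1.50. When all probes in place of 1 probe per gene were fitted, which adjusts over 30322 probes, the same Pln probe had an adjusted p of 0.0546.

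The sequence before the transcription start is shown for Pln, the member that passed the test. Those of Camk2d and Casq2, the members whose differences came next in size, are shown beside it. By limma the adjusted p of Camk2d (0.0551) lay close to that of Pln (0.0478). Whether any motif bears on these differences was not tested. The sequences come from RefSeq (GRCm38.p6), which held entries for 8 of the 10 genes, and each is the 250 bases before the start on the plus strand. They lie at chr10:53337436-53337685 for Pln, chr3:126596701-126596950 for Camk2d and chr3:102086165-102086414 for Casq2. Capitals mark matches on either strand to the TATA box (searched as TATAAA), to the CCAAT box (searched by those letters), to the binding motif of cardiac GATA factors (searched as AGATAA) and to the muscle M-CAT element (searched as CATTCC). The MEF2 and kappa B motifs were searched in the same way and are given here by name.
Pln: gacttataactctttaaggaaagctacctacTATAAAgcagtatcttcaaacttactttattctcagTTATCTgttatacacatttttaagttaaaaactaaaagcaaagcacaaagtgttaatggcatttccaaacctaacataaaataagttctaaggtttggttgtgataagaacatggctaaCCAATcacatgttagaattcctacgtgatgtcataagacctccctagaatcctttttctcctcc
Camk2d: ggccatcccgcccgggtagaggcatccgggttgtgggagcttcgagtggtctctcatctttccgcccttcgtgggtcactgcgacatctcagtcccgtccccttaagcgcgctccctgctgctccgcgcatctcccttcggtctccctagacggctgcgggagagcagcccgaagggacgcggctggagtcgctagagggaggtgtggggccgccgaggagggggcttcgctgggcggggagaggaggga
Casq2: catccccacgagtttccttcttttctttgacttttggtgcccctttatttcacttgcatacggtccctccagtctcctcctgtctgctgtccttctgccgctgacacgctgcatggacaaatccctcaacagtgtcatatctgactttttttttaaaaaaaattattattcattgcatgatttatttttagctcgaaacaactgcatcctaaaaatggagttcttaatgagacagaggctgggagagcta
Pln held a TATA box match 219 bases, a GATA factor motif 183 bases and a CCAAT box 64 bases before its start. Camk2d and Casq2 held none of these motifs in this window. These letters are common: of 32851 mouse promoters of the same length, 12.4% held the TATA box, 33.8% the CCAAT box, 9.99% the GATA factor motif and 12.6% the M-CAT element, while 0.508% held the MEF2 motif and 3.9% kappa B. No motif overlapped another in Pln. The E-box CANNTG, present in 66.2% of promoters and not capitalised, was found in Pln and Casq2 and not in Camk2d.

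Sarcolipin, the other small SERCA inhibitor and in rodents mainly an atrial protein, could not be followed. The Sln probe read -7.41, -7.01 and -6.52 in rhTM hearts, against -7.12, -5.15 and -6.09 in saline hearts, and it was well above background on 0 of 6 arrays. It was left out of the tests, since neither group has more than a bound. Of 6 atrial markers, Mybphl and Bmp10 never stood well above background, while Myl7, Myl4, Nppa and Dkk3 did on all 6 arrays. The mean of these 4 ran from 0.95 to 1.46 in rhTM hearts, against -0.02 to 1.48 in saline hearts. Myl7, Myl4, Nppa and Dkk3 differed by 1.31, -0.32, 0.85 and 0.68. By limma 0 of the 4 were called and 1, Nppa, had an unadjusted p under 0.05.

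Atp2a2, the SERCA2 pump itself, did not pass the test. Its brightest probe read 7.77, 7.58 and 6.77 in rhTM hearts, against 7.12, 7.36 and 6.73 in saline hearts, and the groups overlapped. The difference was 0.31 ± 0.32 (SE), with a 95% interval of -0.46 to 1.07 and a limma adjusted p of 0.533. The 2 dimmer probes of Atp2a2 pointed the other way: A_52_P168097 differed by -0.52 (adjusted p 0.598), and A_52_P569001 by -0.64 (unadjusted p 0.0307, adjusted p 0.141). The last of these read 2.13, 1.89 and 1.63 in rhTM hearts, against 2.52, 2.76 and 2.27 in saline hearts, with no overlap. Within slide 2 the brightest probe, A_52_P168097 and A_52_P569001 differed by 0.65, 0.78 and -0.39, so only the last kept a negative sign. The probes of this gene disagreed in sign over all arrays and within the slide. The direction given for Atp2a2 thus depends on which probe is read.

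The balance of inhibitor and pump can be read within an array, where array scaling cancels. The log2 signal of Pln minus that of Atp2a2 was -0.90, -0.87 and -0.43 in rhTM hearts, against -1.64, -1.76 and -1.94 in saline hearts. The groups did not overlap. The means were -0.74 ± 0.26 with rhTM and -1.78 ± 0.15 with saline (SD, n = 3 each), a difference of 1.05 or 2.06-fold. The two-sided exact permutation p was 0.1, the lowest that 3 against 3 arrays can give, and 0.2 after adjustment over the 2 ratios tested. Within slide 2 the difference was 1.20. Signals of different probes do not measure molecules on 1 scale, so the ratio's level has no meaning as a stoichiometry and only its difference between groups is read. A ratio with Sln was not computed, because Sln was below background.

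**Figure D2:**
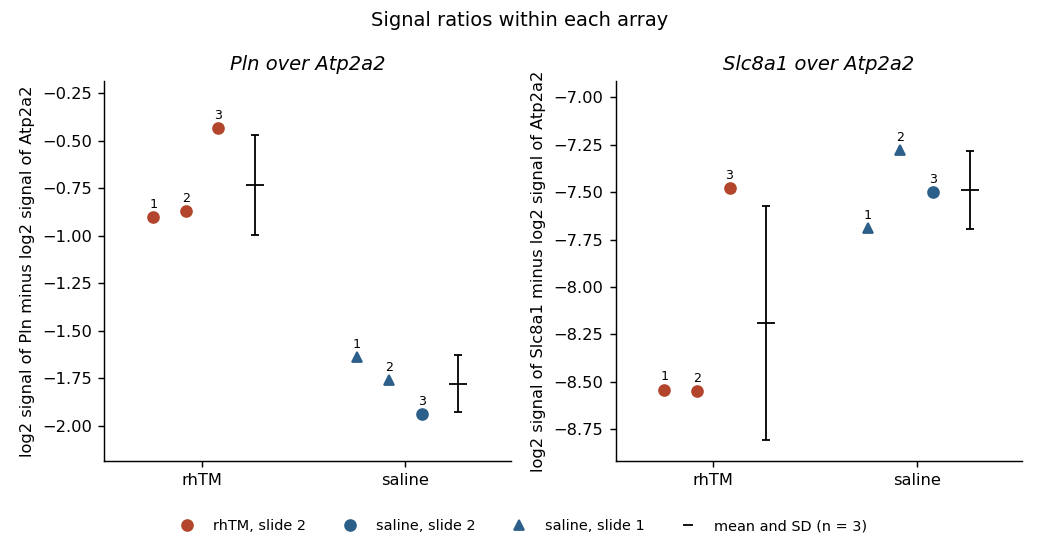
Log2 signal ratios within each array (vertical axis), rhTM left of saline, for Pln over Atp2a2 (left panel) and Slc8a1 over Atp2a2 (right panel), with circles for slide 2, triangles for slide 1 and bars for the mean and SD (n = 3). Pln over Atp2a2 lies at -0.90 to -0.43 with rhTM and -1.94 to -1.64 with saline, and the Slc8a1 ratio overlaps through rhTM 3.

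Calcium release and storage in the SR are represented by Ryr2, the release channel, Casq2, the calcium-binding protein of the SR lumen, and Fkbp1b, the small immunophilin that binds the channel. None of the 3 passed the test. Ryr2 read 3.86, 3.85 and 3.53 in rhTM hearts, against 4.19, 4.13 and 3.26 in saline hearts. The groups overlapped, the difference was -0.11 ± 0.30 (SE; 95% interval -0.82 to 0.60, limma adjusted p 0.823), and within slide 2 it was 0.49. Its second probe differed by 0.17 over all arrays and by 0.47 within the slide.

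Casq2 had the widest range over the arrays of any member above background, 2.17 log2 units. It read 6.87, 6.93 and 6.03 in rhTM hearts, against 6.17, 6.26 and 4.76 in saline hearts. The number 3 arrays were low in both groups: rhTM 3 lay below the other 2 rhTM hearts and saline 3 below the other 2 saline hearts. The difference was 0.88 ± 0.47 (SE; 95% interval -0.24 to 2.00, limma adjusted p 0.245). Within slide 2 it was 1.85, with an adjusted p of 0.0563 when blocked on the slide. The second Casq2 probe differed by 0.44 over all arrays and by 2.25 within the slide. The 3 genes outside the list whose profiles over the 6 arrays lay nearest to that of Casq2, by Euclidean distance after centring each gene, were Asrgl1 at 0.19, 1700008O03Rik at 0.20 and Ak1, an adenylate kinase of muscle, at 0.22.

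Fkbp1b read -1.68, -1.22 and -1.07 in rhTM hearts, against -0.96, -1.25 and -1.23 in saline hearts. The groups overlapped and the difference of -0.18 ± 0.23 (SE; 95% interval -0.72 to 0.37) had a limma adjusted p of 0.615. A second Fkbp1b probe was well above background on 2 rhTM and 1 saline arrays and was not tested.

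Entry and exit across the sarcolemma showed no called change. Cacna1c, the pore of the L-type channel, read 2.97, 2.87 and 3.18 in rhTM hearts, against 3.79, 3.20 and 3.41 in saline hearts. The groups did not overlap, though rhTM 3 lay just under saline 2, and the difference was -0.46 ± 0.22 (SE; 95% interval -0.99 to 0.07, limma adjusted p 0.209). Its 2 other tested probes differed by -0.35 and -0.83 with overlapping groups. The remaining probe was above background on 1 rhTM and 2 saline arrays and was not tested. Within slide 2 the same 3 probes differed by -0.40, 0.31 and 0.05, so 2 of the 3 changed sign.

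Slc8a1, the sodium-calcium exchanger, read -0.77, -0.97 and -0.70 in rhTM hearts, against -0.57, 0.08 and -0.77 in saline hearts. The groups overlapped, and the difference was -0.39 ± 0.26 (SE; 95% interval -1.03 to 0.24, limma adjusted p 0.334). The other probes differed by -0.03 and -0.57. Within slide 2 the difference was -0.04, and blocking on the slide gave a limma adjusted p of 0.928. The other probes differed by -0.31 and 0.27 within the slide. As the second route of calcium removal it was also set against the pump. The log2 signal of Slc8a1 minus that of Atp2a2 was -8.54, -8.55 and -7.48 in rhTM hearts, against -7.69, -7.28 and -7.50 in saline hearts. The difference of -0.70 had a two-sided exact permutation p of 0.3, also 0.3 after adjustment, since rhTM 3 lay within the saline values.

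Camk2d encodes the delta isoform of CaMKII, the main one in heart, which phosphorylates phospholamban and the ryanodine receptor. It came closest to the threshold without passing it. Its brightest probe read 0.11, 0.16 and -0.03 in rhTM hearts, against 1.37, 1.26 and 0.69 in saline hearts. No rhTM heart reached the lowest saline heart. The means were 0.08 ± 0.10 with rhTM and 1.11 ± 0.36 with saline (SD, n = 3 each), a difference of -1.03 ± 0.23 (SE; 95% interval -1.59 to -0.47) or 2.04-fold lower, with a limma adjusted p of 0.0551. Within slide 2 the difference was -0.61, and blocking on the slide gave an adjusted p of 0.0941. Without saline 3 it was -1.24 with an adjusted p of 0.00429, in a fit that called 38.6% of all genes.

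The probes of Camk2d did not move as 1. A_52_P188261 read 0.10, 0.11 and -0.14 in rhTM hearts, against 1.11, 0.92 and 0.59 in saline hearts, a difference of -0.85 (adjusted p 0.0781 over all probes). By contrast A_55_P2860117 read -0.58, -1.09 and -2.10 in rhTM hearts, against -2.18, -2.19 and -2.59 in saline hearts, a difference of 1.06 (unadjusted p 0.0333, adjusted p 0.145). Neither probe's groups overlapped, and they lay on opposite sides. The remaining probe never stood well above background. Camk2d is known for many splice forms, but the files do not say which transcripts these probes read.

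Jph2, junctophilin 2, ties the T-tubule to the SR membrane. It read 3.47, 3.30 and 2.24 in rhTM hearts, against 3.83, 4.06 and 2.29 in saline hearts. The number 3 arrays of both groups stood more than 1 log2 unit below the others, and the groups overlapped. The difference was -0.39 ± 0.55 (SE; 95% interval -1.71 to 0.93, limma adjusted p 0.648), and within slide 2 it was 0.71.

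Over all probes, 19 of the 23 passed the filter on dim signal, 6 with a positive and 13 with a negative difference. In the limma fit over probes 0 of the 19 were called, beside 3.55% of all probes. An unadjusted p under 0.05 was found for 5 of the 19. In the fit over genes that held for 4511 of 14697 genes, and the share of all probes was not counted. Groups did not overlap for 6 of the 19, beside 34.1% of all probes.

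**Figure D3:**
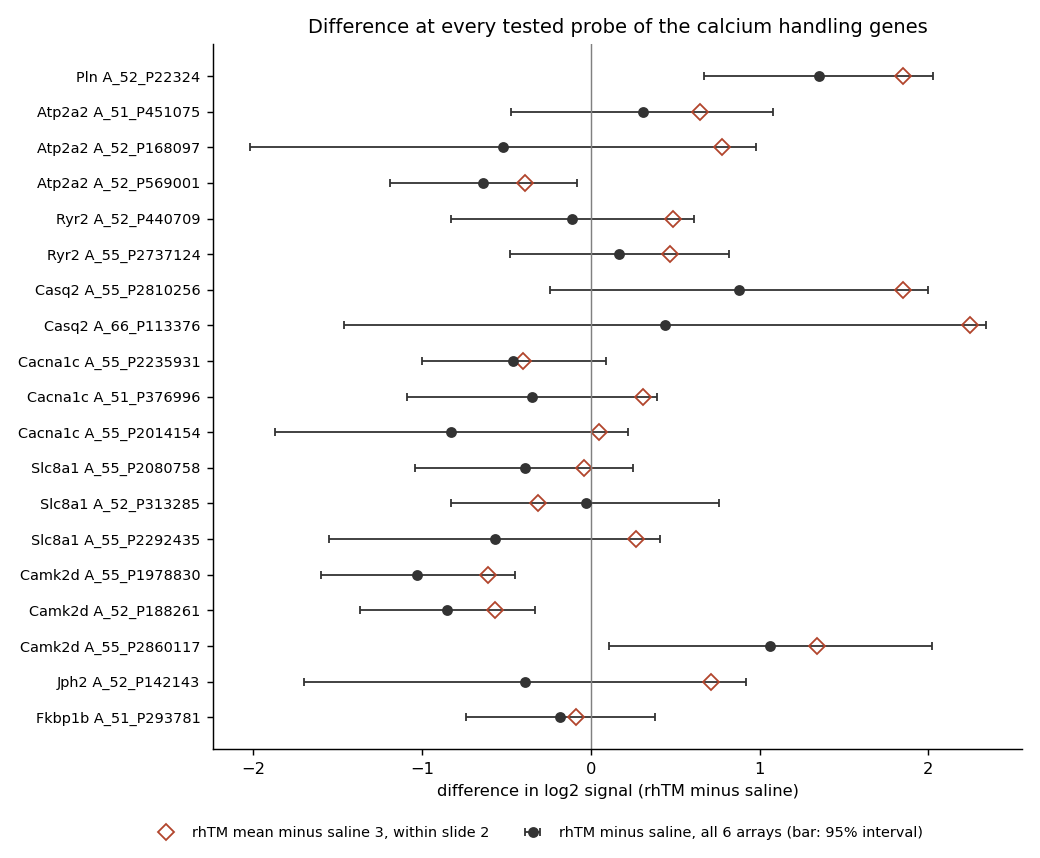
Difference in log2 signal, rhTM minus saline (horizontal axis), at each of the 19 tested probes, with filled points for all 6 arrays, bars for the 95% interval and open diamonds for the rhTM mean minus saline 3 within slide 2. The Pln point stands at 1.35 with its diamond at 1.85, while the 3 Camk2d probes stand on both sides of 0.

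Signals also varied between arrays of the same group. For 4 members, Atp2a2, Ryr2, Casq2 and Jph2, rhTM 3 and saline 3 were the lowest 2 of the 6 arrays. The share of all genes with this pattern was not counted. The mean of 13 cardiomyocyte markers, among them Myh6, Tnnt2 and Actn2, was likewise 7.68, 7.69 and 7.03 in rhTM hearts 1, 2 and 3, against 7.35, 7.51 and 6.54 in saline hearts 1, 2 and 3. Saline 3 was the only saline array on slide 2, so mouse and slide cannot be told apart in the saline group. Across genes saline 3 correlated at 0.965 with rhTM 3, against 0.942 with saline 1 and 0.939 with saline 2. With rhTM 1 and 2 it correlated at 0.924 and 0.923. In whole hearts fewer cells of a type and less RNA per cell cannot be told apart. All 13 markers were bright enough to be tested and 0 were called by limma. Of these, 2 had an unadjusted p under 0.05, beside 4511 of all 14697 genes tested. Myh6, the alpha myosin heavy chain, was nearest at 0.72 ± 0.20 (SE, adjusted p 0.0788). The median difference of the 13 was 0.34, and 0.63 within slide 2.

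Neutrophil markers ran the other way across arrays. The mean of 7 such genes was -0.97, -1.53 and 3.02 in rhTM hearts, against 1.45, 2.15 and 4.07 in saline hearts, and 6 of 7 differences were negative with a median of -3.40. By limma 0 of 7 were called and 1 had an unadjusted p under 0.05, Retnlg was called when blocked on the replicate number (adjusted p 0.0466), and rhTM 3 lay above saline 1 and 2. Macrophage markers ran from 1.49 to 2.02 with rhTM and 1.28 to 2.14 with saline, and endothelial markers from 1.21 to 1.57 with rhTM and 1.11 to 1.80 with saline. Fibroblast marker means ran from 2.71 to 3.20 with rhTM and 3.21 to 3.37 with saline, 0 of 5 were called by limma and 1 had an unadjusted p under 0.05, and Dcn differed by 0.34 against the sign of the other 4. Smooth muscle and pericyte markers ran from 1.47 to 1.81 with rhTM and 1.62 to 2.33 with saline. Of these 6 genes Rgs5 was called higher and Acta2 and Pdgfrb lower by limma, beside 5.17% of all genes in either direction. The 2 other tested Acta2 probes differed by -1.44 and 0.28, so the probes of this gene disagreed in sign. Blocking on the replicate number left the call of Acta2 (adjusted p 0.0409) but not of Rgs5 (0.0608) or Pdgfrb (0.0554), and blocking on the slide left none of them (0.0605 to 0.0895). Red blood cell genes ran from 1.70 to 3.47 with rhTM and 2.71 to 3.88 with saline, and by limma 0 of 3 were called and 0 had an unadjusted p under 0.05. Of the 2 brown fat markers Ucp1 never stood well above background, while Cidea did on all arrays, at 4.52 to 4.62 with rhTM and 4.40 to 5.46 with saline. Of 8 skeletal muscle markers Myh1 and Actn3 never stood well above background, and Myh2 did on 1 saline array. Myh4, which was called higher, and Myf6, which was not, were above background on 3 rhTM and 0 saline arrays, so they passed the dim filter through the rhTM group alone. Tnnt3, Tnni2 and Mylpf, measured on all arrays, differed by -0.07, 0.14 and 0.58, and none of these 3 was called. The part of these cell types in the member differences was not tested.

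**Figure D4:**
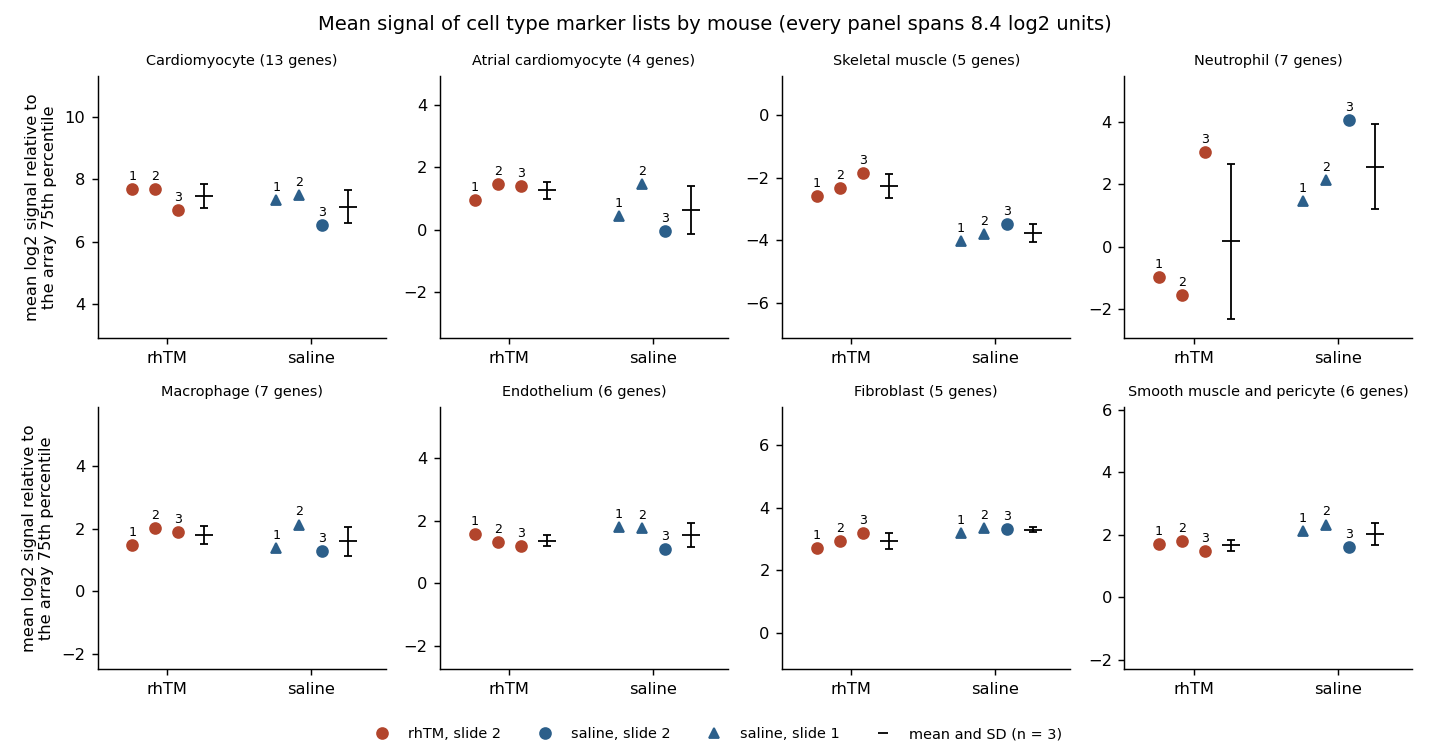
Mean log2 signal relative to the array's 75th percentile (vertical axis) of 8 marker lists in every mouse, rhTM left of saline, with circles for slide 2, triangles for slide 1 and bars for the mean and SD (n = 3). Cardiomyocyte means are lowest, and neutrophil means highest, on the number 3 array of each group, and the skeletal muscle panel includes Myh4 and Myf6, which were above background on 0 saline arrays.

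The wider calcium machinery was read in 8 lists of 113 further genes, of which all but 6 had a probe and 96 were tested. In the limma fit 4 were called higher and 1 lower, beside 5.17% of all genes in either direction, and 50 differences were positive and 46 negative. An unadjusted p under 0.05 was found for 20 of the 96, beside 4511 of all 14697 genes tested. Mrln, Strit1, Arln, Erln, Ryr3 and Slc8a2 matched no probe and were not analysed here.

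Among pumps and other SERCA regulators 0 of 5 were called and 0 had an unadjusted p under 0.05 by limma. Atp2a1, the fast skeletal muscle pump, differed by -0.83 ± 0.70 (SE, adjusted p 0.437). Without saline 3 that difference was -1.61 and called (adjusted p 0.0324), with array weights it was -1.26 (0.00529), and within slide 2 it was 0.71. S100a1, which binds SERCA2 and the ryanodine receptor, differed by 0.18 ± 0.16 (SE, adjusted p 0.468). The median of the 5 was -0.14.

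Among 14 partners of SR release and storage 4 had an unadjusted p under 0.05 by limma. Of these 14, 1 was called, Sri, and it fell. Sri encodes sorcin, a calcium-binding protein that can damp the ryanodine receptor. It read 2.48, 2.71 and 3.27 in rhTM hearts, against 4.09, 4.01 and 4.76 in saline hearts. The groups did not overlap, the difference was -1.46 ± 0.30 (SE, adjusted p 0.0478 by limma), and within slide 2 it was -1.93. Leaving out rhTM 1, rhTM 2, saline 1 or saline 2 lost the call, at adjusted p up to 0.217. Trdn, chosen after its values were seen, encodes triadin, which anchors calsequestrin at the release channel. It read 5.34, 5.31 and 4.89 in rhTM hearts, against 4.38, 3.96 and 3.44 in saline hearts. Its groups did not overlap, and the difference of 1.25 ± 0.29 (SE) missed the threshold with an adjusted p of 0.0569, while blocking on the slide gave 0.0362, blocking on the replicate number 0.0474 and leaving out saline 3 0.0204.

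Junction and T-tubule genes had 0 of 10 called by limma and 1 with an unadjusted p under 0.05. Cav3, the muscle caveolin, differed by -0.88 ± 0.20 (SE, adjusted p 0.0561) and Jph4, a junctophilin best known in neurons, by 0.53 ± 0.24 (SE, adjusted p 0.185). Without saline 3 both were called, Cav3 at -0.98 (adjusted p 0.0118) and Jph4 at 0.75 (0.0146), and within slide 2 Jph4 differed by 0.10.

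Of the 13 tested channel subunits and RGK channel inhibitors 4 had an unadjusted p under 0.05 by limma, and 1 was called. Cacna2d2, an auxiliary alpha2delta subunit, read -1.55, -1.67 and -1.78 in rhTM hearts, against -3.08, -2.80 and -2.82 in saline hearts, a rise of 1.24 ± 0.18 (SE, adjusted p 0.0284 by limma). Within slide 2 the difference was 1.16. After normexp background correction it was 0.58 (adjusted p 0.141), and as the mean of all its probes 0.69 (adjusted p 0.118). The call was lost without rhTM 1, rhTM 2, saline 1 or saline 2, with adjusted p up to 0.175. The median of the 13 was 0.40.

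Of 9 genes of calcium and sodium extrusion 0 were called by limma and 2 had an unadjusted p under 0.05. Atp2b4, a plasma membrane calcium pump, differed by 1.49 ± 0.32 (SE, adjusted p 0.0505), with 2 of 3 saline arrays above background. It was called when blocked on the slide (adjusted p 0.0413) or on the replicate number (0.0461) and without saline 3 (0.0204). After normexp background correction the difference was 0.39 (adjusted p 0.352), and as the mean of its probes 0.35 (0.575).

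The kinases, phosphatases and regulators of cyclic AMP had 7 of 27 with an unadjusted p under 0.05 by limma and 2 called, both higher. Akap7, which tethers protein kinase A and in heart is linked to the phospholamban complex, read 7.73, 7.63 and 7.08 in rhTM hearts at its brightest probe, against 2.94, 2.41 and 4.79 in saline hearts. That is a difference of 4.10 ± 0.61 (SE, adjusted p 0.0284 by limma) or 17.2-fold, yet its other 2 probes differed by 0.17 and 0.18. The 3 probes therefore give no single change for Akap7, and its call was also lost without rhTM 1, rhTM 2, saline 1 or saline 2 (adjusted p up to 0.157). Camk2b, the beta isoform of CaMKII, read 0.87, 0.74 and 0.17 in rhTM hearts, against -0.70, -1.57 and -0.78 in saline hearts. It rose by 1.61 ± 0.32 (SE, adjusted p 0.0446 by limma), but the adjusted p was 0.109 blocked on the slide, 0.0574 blocked on the replicate number and up to 0.21 without rhTM 1, rhTM 2, saline 1 or saline 2.

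Mitochondrial calcium uptake had 0 of 10 called and 0 at an unadjusted p under 0.05 by limma. Smdt1, an essential subunit of the mitochondrial uniporter, differed by 0.34 ± 0.18 (SE, adjusted p 0.231).

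**Figure D5:**
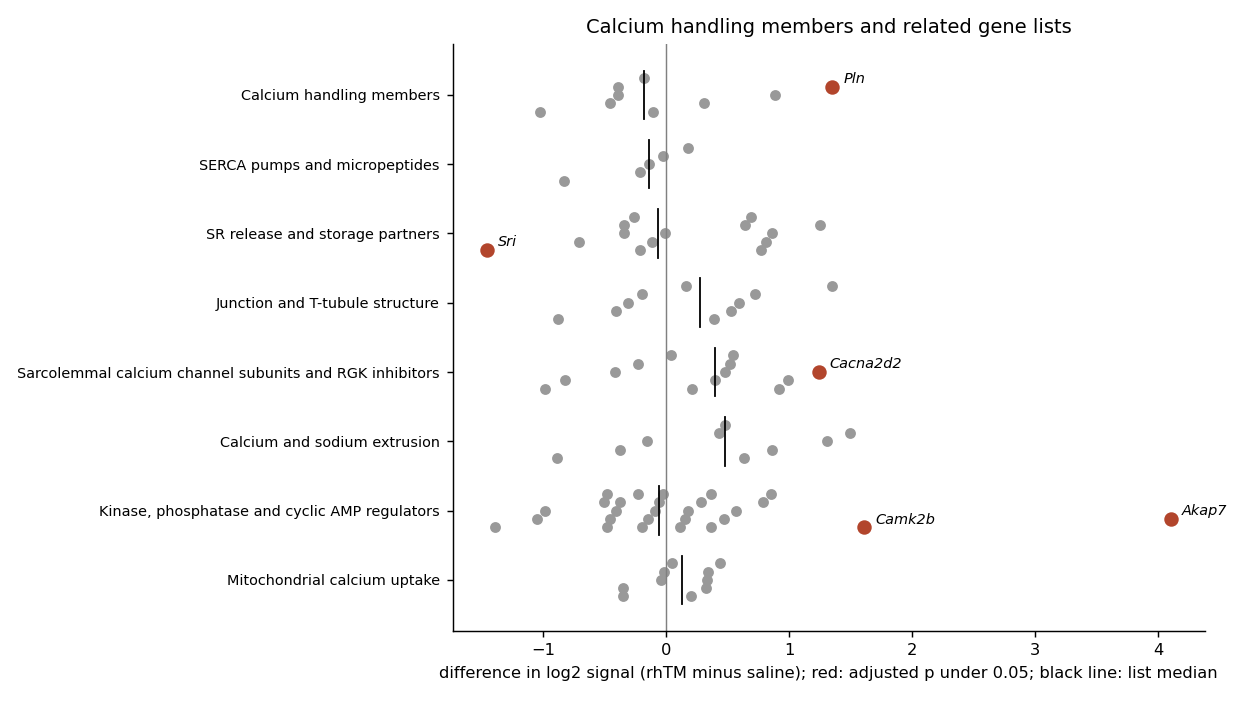
Difference in log2 signal, rhTM minus saline (horizontal axis), for the tested genes of the calcium handling list and of 7 related lists, red where the limma adjusted p was under 0.05, with a black line at each list's median. Pln, Cacna2d2, Camk2b and Akap7 lie to the right in red and Sri to the left, and the medians run from -0.18 to 0.48.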

How the data were processed

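The members and lists were chosen with earlier results of these data known. Intensity values came from the scanner files as the authors deposited them, and the file headers name Agilent Feature Extraction 10.7.3.1 and a probe grid of build mm9. Version 9.1 stands in the submitters' processing notes. Per the file headers the processed signal is background-corrected, and it was not yet normalised between arrays. The authors also deposited a table of log2 values whose scale and centring are not stated; its column medians were -0.16 to 0.10. Set against the scanner values, it holds a baseline per probe that differed between slides (SD 0.825) and hardly within them (at most 0.00165), so it served only as an alternative.

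Of 56605 probes besides controls, 368 with outlier flags were left out, and 32784 of the 56237 kept had a symbol through their accession. The log2 processed signal was taken relative to the array's 75th percentile, the probe with the highest mean signal stood for a gene, and it had to be well above background on all 3 arrays of 1 group. Groups came from the sample titles. Differences were fitted with limma 3.58.1 in R 4.3.3, and the fit was tested first on simulated data. Those data held no slide effect, so that test could not show how the slides bear on the calls. Ratios were compared by exact permutation tests, with scipy 1.17.1 used for their Benjamini-Hochberg adjustment. The named genes were all members, the called genes of each list or its 2 lowest p-values, and the 3 profiles nearest to the widest-ranging member. Same-numbered mice deviated together (correlations across genes of 0.319, 0.235 and 0.372 for numbers 1, 2 and 3), but so did rhTM 2 with saline 1 (0.314) and rhTM 1 with saline 2 (0.129), while pairs of a number 3 array with another number ran from -0.387 to -0.221. Each gene was centred on its group mean, so deviations within a group cancel and these correlations are not independent of each other. A positive value for the number 3 pair makes its values with other numbers negative on balance. The numbers set mouse 3 of each group apart and do not separate 1 from 2. Saline 3 was also the only saline array on slide 2, so mouse and slide cannot be told apart in that group. The replicate number of the titles was fitted as a block. Other alternatives were the background correction, scaling, dim filter, deposited table, slide, array weights, mean of probes and leaving out each array. Normexp used the median spot signal because the files hold no mean signal, chosen after seeing the data, and gene names of the scanner files were not used. Some genes that are counted in the related lists are not reported here.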

Additional observations from a re-analysis of the deposited data

How the results depend on the processing

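The 6 arrays and their 2 slides limit every call. Of all genes 760 were called, against 412 with normexp (offset 50, on the median spot signal, chosen after seeing the data), 151 without a dim filter, 4518 in the deposited table, 9241 with array weights and 0 by limma when arrays were centred on cardiomyocyte markers (chosen after seeing the data; 3068 at an unadjusted p under 0.05, with the median of all genes at -0.32), and 2 to 5788 when 1 array was left out, the most without saline 3. Centring on the median of genes gave 64.3% of calls higher, against 53.3%. Members called were 1, against 0 under quantile scaling, without a filter and centred on cardiomyocyte markers, 2 in the deposited table, 5 with array weights, and 0 to 2 with 1 array left out (2 without saline 3, otherwise 0). Member probes called were 0, against 1 with median centring and with the slide as a block. They were 4 in the deposited table, 12 with array weights and 0 to 7 without 1 array, the most without saline 3. These settings called many probes of all. Of 30322 probes tested, 3813 were called higher and 3665 lower in the deposited table, and 10354 higher and 8407 lower with array weights. Without saline 3, 7006 were called higher and 5222 lower of 31563. Of the related lists 5 genes were called, against 0 without a filter, 37 in the deposited table, 11 with the slide as a block, 56 with array weights, 1 as the mean of probes, 0 centred on cardiomyocyte markers and 0 to 31 without 1 array.

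Pln kept its direction in 17 alternatives, from 1.02 to 1.95, and was called in 9, at limma adjusted p from 0.000383 to 0.217; it was not called at 1.20 under quantile scaling (adjusted p 0.0962), at 1.35 without a filter (0.0983) or at 1.02 centred on cardiomyocyte markers (0.134). Camk2d ran from -1.36 to -0.38 and was called in 2. Signs turned for Atp2a2 (-0.28 as the mean of probes, -0.03 centred on cardiomyocyte markers), Ryr2 (0.34 in the deposited table, 0.49 with the slide block, 0.03 as the mean of probes, 0.06 and 0.03 without saline 1 and 2, and -0.41 to 0.06 over single arrays left out), Jph2 (0.29 in the deposited table, 0.71 with the slide block), Fkbp1b (0.00 without rhTM 1, -0.30 to 0.00 over single arrays left out), Atp2a1 (0.85 in the deposited table, 0.71 with the slide block) and S100a1 (-0.15 centred on cardiomyocyte markers); the cause was not tested. As the mean of probes the Pln ratio to Atp2a2 was 1.63 and the Slc8a1 ratio -0.05. With the replicate block 599 genes, 1 member, 0 member probes and 6 related genes were called, Pln had an adjusted p of 0.0429, and the block ended the calls of Camk2b, Rgs5 and Pdgfrb and added those of Atp2b4, Trdn, Retnlg and Myf6 (adjusted p 0.0391), with no change among the members. Names from the scanner files and normexp on a mean signal were not run, nor alternatives of a Sln ratio.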
